A study of Mus musculus with 91 samples.

Results

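The adult haemoglobin genes Hbb-bs (ENSMUSG00000052305), Hbb-bt (ENSMUSG00000073940), Hba-a1 (ENSMUSG00000069919) and Hba-a2 (ENSMUSG00000069917) were followed across 91 libraries of ribosome-associated mRNA from the mouse nucleus accumbens, a striatal region involved in reward. They are 4 of the 14355 genes in the deposited count table, and they were chosen from measured values: their fitted D2 over D1 differences were the largest of all genes, at ranks 1 to 4. Their difference between the cell types is therefore given as a description, without a test. Sex, time of day, the letter in the library title and the relations among the genes within a cell type played no part in the choice and were tested.

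The D1 libraries (n = 45) came from Drd1-Cre mice and the D2 libraries (n = 46) from A2a-Cre mice, both crossed to RiboTag mice, in which Cre switches on a haemagglutinin-tagged ribosomal protein, HA-Rpl22. An antibody to the tag pulled down ribosomes, and the mRNA bound to them was sequenced. Each library pooled accumbens tissue of 2 mice, either female or male, over 10 weeks of age and kept in 12:12 light and dark. Tissue was taken at ZT2, ZT6, ZT10, ZT14, ZT18 or ZT22, where ZT counts hours from lights on, which gave 24 groups by cell type, sex and time, and each library carries a letter from A to E whose meaning the labels do not give. Every D1 library is from the Drd1-Cre line and every D2 library from the A2a-Cre line, so cell type and mouse line cannot be told apart. In pooled tissue, more cells of a type and more RNA per cell cannot be told apart either.

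Haemoglobin is the oxygen carrier of red blood cells, a tetramer of alpha and beta chains that each hold a haem group. Its mRNA is made in very large amounts in maturing red cells and stays in reticulocytes, the young red cells of the blood; low levels have been described in some neurons. Hbb-bs and Hbb-bt are the tandem adult beta-chain genes of the mouse reference strain, and Hba-a1 and Hba-a2 are a duplicated pair of adult alpha-chain genes. The transcripts of such copies are very similar, so how the authors' counting shared reads between Hba-a1 and Hba-a2, or between Hbb-bs and Hbb-bt, is uncertain.

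In the RefSeq table for GRCm38.p6, Hbb-bs lies on the minus strand at chr7:103826523-103827928 and Hbb-bt on the same strand at chr7:103812524-103813923. Hba-a1 lies on the plus strand at chr11:32283672-32284486 and Hba-a2 at chr11:32296492-32297310. The promoters are shown because the 4 genes had one pattern between the cell types. Each sequence is the 250 bases before the annotated start of the gene, 5′ to 3′ on the gene's strand, from RefSeq, GRCm38.p6. They cover chr7:103827929-103828178 (minus strand) for Hbb-bs, chr7:103813924-103814173 (minus strand) for Hbb-bt and chr11:32283422-32283671 (plus strand) for Hba-a1. Capitals mark matches, on either strand, to the GATA box GATAA, the CACCC box CACCC, the CCAAT box CCAAT and the TATA box TATAA.
Hbb-bs: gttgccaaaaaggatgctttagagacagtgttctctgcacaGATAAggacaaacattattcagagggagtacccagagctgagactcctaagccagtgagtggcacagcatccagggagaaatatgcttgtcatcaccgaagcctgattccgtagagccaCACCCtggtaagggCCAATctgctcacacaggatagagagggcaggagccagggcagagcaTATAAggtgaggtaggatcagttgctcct
Hbb-bt: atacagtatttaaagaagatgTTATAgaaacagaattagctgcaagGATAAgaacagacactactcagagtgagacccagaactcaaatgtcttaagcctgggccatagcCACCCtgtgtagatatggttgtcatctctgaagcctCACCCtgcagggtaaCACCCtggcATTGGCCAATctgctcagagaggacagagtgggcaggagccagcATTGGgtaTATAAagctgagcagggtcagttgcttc
Hba-a1: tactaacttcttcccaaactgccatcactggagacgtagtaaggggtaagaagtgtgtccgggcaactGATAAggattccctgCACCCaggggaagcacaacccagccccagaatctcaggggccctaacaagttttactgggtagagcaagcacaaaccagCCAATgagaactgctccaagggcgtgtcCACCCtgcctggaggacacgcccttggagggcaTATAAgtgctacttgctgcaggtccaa

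All 4 members held all 4 motifs in this window. Among 32851 promoters of the same length, 22.6% held GATAA, 52% CACCC, 33.8% CCAAT and 22.8% TATAA on either strand, and 0.968% held all 4. The TATA box on the gene's own strand began 29 bases before the start in Hbb-bs, 28 in Hbb-bt, 27 in Hba-a1 and 30 in Hba-a2. The nearest CCAAT on that strand began 76, 75, 88 and 91 bases before the start, in the same order. The Hba-a2 window is not printed because, shifted by 3 bases, it was identical to that of Hba-a1 at 247 of 247 aligned positions. The beta promoters were identical at 178 of 243 aligned positions, or 73.3%. These matches describe the letters in the window and are not evidence that a factor binds there.

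Haemoglobin mRNA was detected in nearly every D1 library, but at a few reads. Hbb-bs had a median of 10 counts per D1 library, Hbb-bt 5, Hba-a1 7 and Hba-a2 4, and they were at 0 in 2, 5, 3 and 8 of the 45 libraries. The same medians in D2 libraries were 459.5, 289.5, 142 and 84 counts, and the lowest counts in any D2 library were 120, 61, 26 and 21. Total counts ran from 6872165 to 24665262 over the 91 libraries. D1 levels rest on too few reads for single libraries to be ranked.

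Levels are given as CPM, counts scaled to a common library total after TMM adjustment. The beta chain Hbb-bs was at 0 to 2.55 CPM in D1 libraries (median 0.789) and had a median of 33.7 CPM in D2 libraries, where every library was above every D1 library. Hbb-bt had medians of 0.321 CPM in D1 and 19.7 CPM in D2. In the alpha chains, Hba-a1 ran from 0 to 3.40 CPM in D1 (median 0.460) and from 3.30 to 82.5 CPM in D2 (median 11.3). Hba-a2 ran from 0 to 5.35 CPM in D1 (median 0.288) and from 2.18 to 19.9 CPM in D2 (median 6.91). The sum of the 4 genes was at most 18.7 CPM in a D1 library and at least 26.7 CPM in a D2 library, so the cell types did not overlap in that sum. The members were picked on this difference, and the share of all genes that separate in this way was not taken. Nothing is read from the separation.

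The fitted D2 over D1 difference was 5.84 ± 0.30 (SE) on the log2 scale for Hbb-bt, or 57.4-fold. For Hbb-bs it was 5.58 ± 0.19 (47.9-fold), for Hba-a1 4.89 ± 0.24 (29.6-fold) and for Hba-a2 4.54 ± 0.24 (23.2-fold), with 45 D1 and 46 D2 libraries. The first gene outside the chosen set, at rank 5, differed by 4.13 (17.5-fold), with means of 0.239 CPM in D1 and 4.14 CPM in D2. The median size of the difference over all 14355 genes was 0.09. In this comparison 9.86% of all genes were called higher in D2 by edgeR's quasi-likelihood test (adjusted p under 0.05), and 1.31% were called and over 2-fold higher; the members were picked on these values, so nothing is read from their count.

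**Figure D1:**
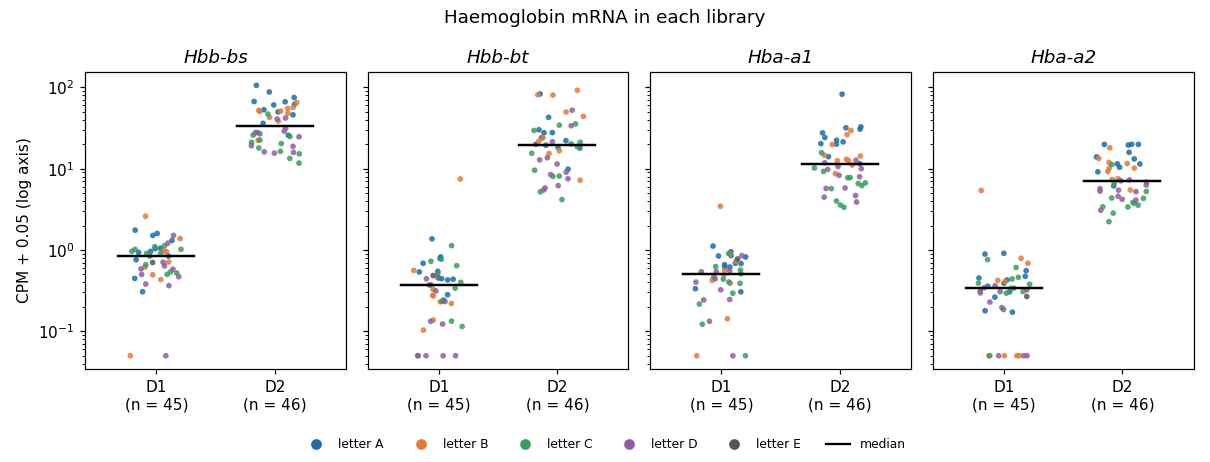
Each point is one library, with CPM + 0.05 on a log axis, for the 45 D1 and 46 D2 libraries; colours give the letter of the library and black lines the medians, and libraries with no read sit at 0.05. The D2 points of Hbb-bs lie above all D1 points, and in the other panels the highest D1 point, a letter B library, reaches into the D2 range.

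A single D1 library, the male ZT10 library of letter B, held the highest D1 value of all 4 genes. It had 21 counts of Hbb-bs, 61 of Hbb-bt, 28 of Hba-a1 and 44 of Hba-a2, and it listed 789 of the 14355 genes at 0, where all but 3 D1 libraries listed at most 3. The other D1 libraries with many genes at 0 were male ZT22 of letter B (722 genes) and male ZT18 of letter D (205 genes), which held 1 haemoglobin read and none. Because of the ZT10 library, 6 D2 libraries lay at or below the highest D1 value for Hbb-bt, 1 for Hba-a1 and 16 for Hba-a2, against 0 for Hbb-bs. Without these 3 libraries the highest D1 values were 1.70 CPM for Hbb-bs, 1.32 for Hbb-bt, 1.07 for Hba-a1 and 0.860 for Hba-a2, and no D2 library overlapped with D1 for any member. The members were picked on the D2 over D1 difference, and the share of all genes without overlap was not taken, so this is a description only. What else sets these 3 libraries apart was not tested.

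Within D2, the letter of the library went with the level of every member. Hbb-bs was at 61.3 ± 21.9 CPM in letter A (SD, n = 12), 48.2 ± 11.7 in B (n = 10), 22.0 ± 9.36 in C (n = 12) and 25.6 ± 9.20 in D (n = 12). Letters A and B were thus high and C and D low, although 12 of the 24 libraries of C and D exceeded the lowest library of A and B. Hbb-bt had means of 28.6 ± 19.0, 43.2 ± 31.4, 17.5 ± 11.1 and 15.6 ± 14.1 CPM in letters A to D, and here the highest mean was that of B. The letters overlapped most for this gene: 19 of the 24 libraries of C and D exceeded the lowest library of A and B.

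Letters A and B were also the high ones in the alpha chains. Hba-a1 was at 28.2 ± 18.3 CPM in letter A, 16.2 ± 6.82 in B, 7.18 ± 3.42 in C and 7.93 ± 3.04 in D, with the same n. Hba-a2 was at 14.2 ± 4.78, 10.4 ± 3.59, 4.52 ± 2.39 and 5.37 ± 1.30 CPM. In C and D, 8 of 24 libraries exceeded the lowest A or B library for Hba-a1 and 7 of 24 for Hba-a2.

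With edgeR's quasi-likelihood test the letters of D2 libraries differed for all 4 members, with adjusted p = 2.11e-11 for Hbb-bs, 0.000735 for Hbb-bt, 7.27e-12 for Hba-a1 and 5.14e-12 for Hba-a2. Most of the table did the same: 85.6% of all genes were called in this test, so the 4 of 4 stand close to the background. Hba-a1 was 3.85-fold higher in A than in C and 3.43-fold higher than in D; its log2 differences of -1.95 ± 0.22 and -1.78 ± 0.22 (SE) ranked 22 and 17 of 14355 by size. Letter A of Hba-a1 includes the male ZT2 library at 82.5 CPM. Hbb-bs was 2.82-fold and 2.44-fold higher in A (ranks 620 and 920), and Hba-a2 3.14-fold and 2.66-fold (ranks 260 and 479). Hbb-bt was 1.71-fold and 1.93-fold higher in A than in C and D (ranks 3970 and 2120). The median difference of all genes was 0.49 for C and 0.46 for D on the log2 scale, in either direction. Depth moved with the letter: mean totals were 19727033 counts in A, 16241681 in B, 11336342 in C and 10904585 in D, and the part of depth in these differences was not tested.

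**Figure D2:**
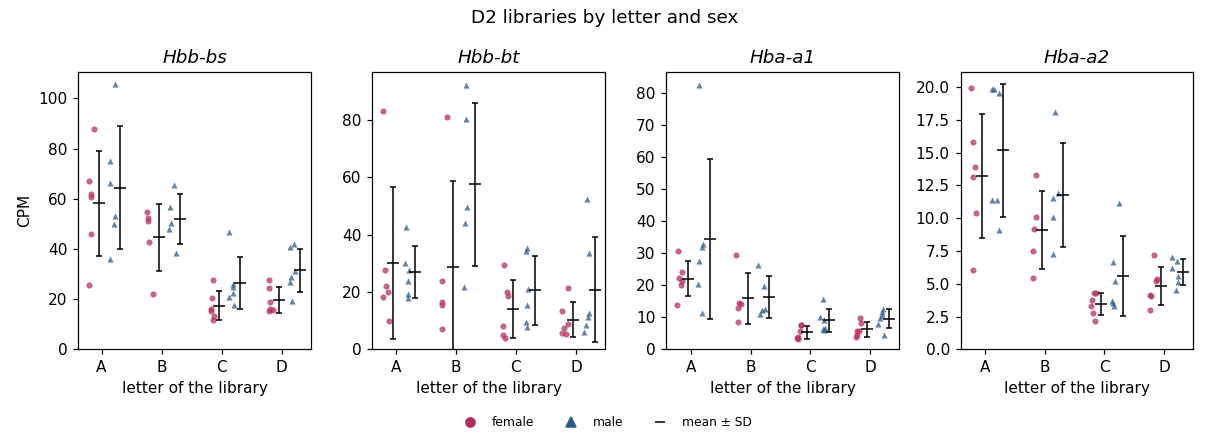
CPM of each D2 library by letter, with females as circles and males as triangles; black marks are mean ± SD of the 5 or 6 libraries of a letter and sex, and bars that would pass below 0 are cut there. For Hbb-bs, Hba-a1 and Hba-a2 letters A and B sit above C and D, while Hbb-bt is spread widely within each letter.

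In D1 libraries the letter test called 0 of the 4 members, against 58.4% of all genes, with adjusted p = 0.298 for Hbb-bs, 0.0738 for Hbb-bt, 0.0947 for Hba-a1 and 0.105 for Hba-a2 in edgeR. Only Hbb-bt had an unadjusted p under 0.05. The members had medians of 4 to 10 counts in D1 libraries. A lack of calls there, by letter, sex or time, cannot be told from a lack of reads. Without the 3 D1 libraries that stand apart, Hbb-bt (adjusted p = 0.0361) and Hba-a1 (0.0380) were called, 2 of 4 where 66.7% of all genes were called. Without letter B, which holds 2 of these libraries, the same 2 members were called (adjusted p = 0.0355 and 0.0311), against 48.7% of all genes. In letter D of D1, Hbb-bt had a median of 0.0827 CPM over 11 libraries and was at 0 in 4 of them, against a median of 0.444 CPM and no library at 0 in the 12 libraries of letter A.

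Sex was compared next, in D2 and then in D1. Among D2 libraries Hbb-bs ran from 11.7 to 87.9 CPM in females (median 25.7, n = 23) and from 17.9 to 105.9 CPM in males (median 40.8, n = 23). Hba-a1 ran from 3.30 to 30.6 CPM in females (median 8.63) and from 4.63 to 82.5 CPM in males (median 11.8). The sexes overlapped over most of their range for both genes. Hbb-bt had medians of 16.6 CPM in females and 24.0 CPM in males, and Hba-a2 of 5.41 and 7.28 CPM.

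The male minus female difference in D2 was 0.33 ± 0.23 (SE, log2) for Hbb-bs, 0.56 ± 0.33 for Hbb-bt, 0.49 ± 0.30 for Hba-a1 and 0.33 ± 0.25 for Hba-a2. None was called by edgeR (adjusted p = 0.926 for each), none had an unadjusted p under 0.05, and 0.216% of all genes were called in either direction. Letters were taken to pair the D2 libraries because same-letter libraries deviated together, though the labels state no pairing. The test above leaves that pairing out. With the letter as a block 2 members were called higher in males: Hbb-bs, by 0.39 (adjusted p = 0.0416), and Hba-a1, by 0.50 (adjusted p = 0.0395). Hbb-bt (0.57, adjusted p = 0.150) and Hba-a2 (0.37, adjusted p = 0.0641) were not called. The blocked test called 5.01% of all genes higher in males, so 2 of 4 is to be read against that share. Hbb-bs and Hba-a1 moved together over the D2 libraries (r = 0.91), so the 2 calls are not independent.

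Within letters, the male mean was above the female mean in all 4 letters for Hbb-bs, Hba-a1 and Hba-a2, and in 3 of 4 for Hbb-bt. The sum of the 4 genes was 1.14-fold higher in males in letter A, 1.40-fold in B, 1.53-fold in C and 1.64-fold in D, with 5 or 6 libraries of each sex. For Hbb-bs in letter D, for example, males were at 31.5 ± 8.72 CPM and females at 19.8 ± 5.23 CPM (SD, n = 6 each), while in letter A they were at 64.4 ± 24.4 and 58.2 ± 20.9 CPM. The exception, Hbb-bt in letter A, was at 27.0 ± 9.05 CPM in males and 30.2 ± 26.6 CPM in females.

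In D1 libraries the male minus female difference was 0.19 ± 0.25 for Hbb-bs, 0.60 ± 0.45 for Hbb-bt, -0.20 ± 0.32 for Hba-a1 and 0.44 ± 0.44 for Hba-a2 (SE, log2). edgeR called none (adjusted p = 0.709, 0.520, 0.767 and 0.635), and none had an unadjusted p under 0.05; over all genes 0.0418% were called. The test of whether the sex difference itself differed between D2 and D1 gave 0.14 ± 0.39, -0.02 ± 0.42, 0.70 ± 0.50 and -0.10 ± 0.49 (adjusted p = 0.999, 0.999, 0.933 and 0.999). That test called 0 of all 14355 genes (0%), with 908 at an unadjusted p under 0.05, and DESeq2 called 21. The standard errors leave room for differences of about the size measured in D2.

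In tests averaged over the sexes, time of day gave no call for any member. By ZT in D2, the median of Hbb-bs was 27.8 CPM at ZT2 (n = 7), 27.8 at ZT6 (n = 7), 43.9 at ZT10, 44.0 at ZT14, 20.7 at ZT18 and 39.4 at ZT22 (n = 8 each). The range within a time was wider than the range of these medians: at ZT2 libraries ran from 15.8 to 105.9 CPM and at ZT18 from 15.2 to 87.9 CPM. Medians of Hba-a1 at the same times were 11.0, 9.75, 13.4, 13.3, 8.44 and 14.9 CPM. Those of Hba-a2 were 5.17, 5.63, 8.67, 7.92, 5.40 and 9.31 CPM, and those of Hbb-bt 9.82, 19.9, 22.7, 17.4, 7.73 and 20.9 CPM.

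Cosines of 24 h were fitted to each sex of the D2 libraries, and their terms were averaged over the sexes. The averaged wave had an amplitude (peak minus mean, in log2 units) of 0.09 for Hbb-bs, 0.16 for Hbb-bt, 0.22 for Hba-a1 and 0.08 for Hba-a2. Waves of opposite phase in females and males would cancel in it, and rhythm within a single sex was not tested. The median amplitude over all genes was 0.07, and edgeR called 2.94% of them rhythmic. For each member the adjusted p was 1.00 and the unadjusted p above 0.05. With the letter as a block 22.3% of all genes were called and still no member (adjusted p = 0.551, 0.549, 0.436 and 0.805). In D1 the amplitudes were 0.18, 0.38, 0.42 and 0.56, with adjusted p = 0.811, 0.744, 0.537 and 0.535 and 0.495% of all genes called. These D1 amplitudes rest on few libraries: without the 3 that stand apart they were 0.29, 0.43, 0.12 and 0.17, and without letter A 0.23, 0.77, 0.96 and 0.94, with no member called in either case. DESeq2 called no member rhythmic, against 4.66% of all genes in D2 and 1.5% in D1, and none by letter in D1, against 63.2%. The rhythms of D1 and D2 were not called different for any member (adjusted p = 0.898, 0.918, 0.816 and 0.779), with 0.0139% of all genes called.

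**Figure D3:**
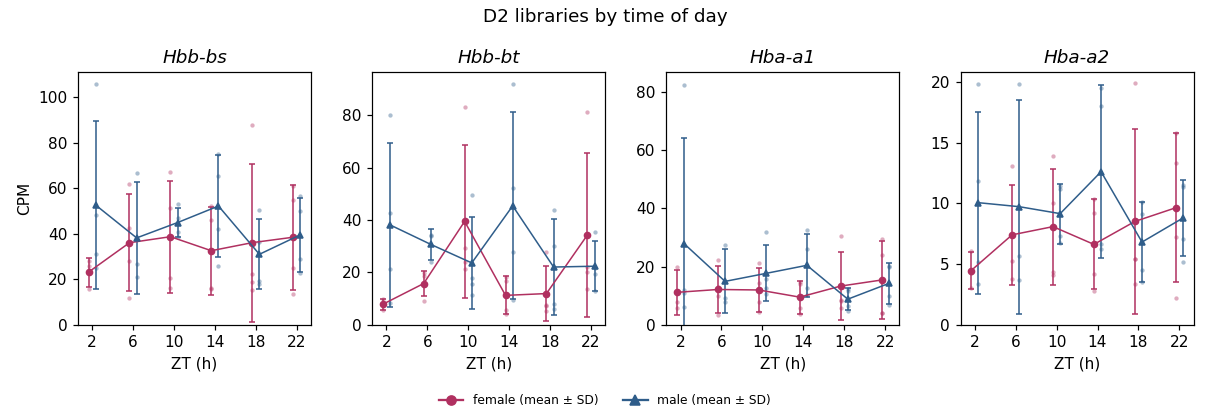
CPM in D2 libraries by ZT in hours, females as circles and males as triangles; lines join means, bars are SD of 3 or 4 libraries (cut at 0), and faint points are single libraries. The spread within a time is wide for each gene, and single high libraries pull up several means, such as the male ZT2 library at 82.5 CPM of Hba-a1.

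The members varied between D2 libraries to different extents. From the lowest to the highest library, Hbb-bs spanned 9.08-fold, Hba-a2 9.12-fold, Hbb-bt 22.4-fold and Hba-a1 24.95-fold. The span of Hba-a1 rests on the male ZT2 library of letter A (82.5 CPM): without it the highest library was at 32.7 CPM and the span was 9.89-fold, close to those of Hbb-bs and Hba-a2. Hbb-bt spanned 20.2-fold without its own highest library. The SD of log2(CPM + 0.5) was 0.79 for Hbb-bs, 1.11 for Hbb-bt, 0.97 for Hba-a1 and 0.80 for Hba-a2. Hbb-bs and the alpha chains moved together: on log2(CPM + 0.5) over the 46 libraries, Hbb-bs and Hba-a2 had Pearson's r = 0.94 and Spearman's rho = 0.94, Hbb-bs and Hba-a1 had r = 0.91 and rho = 0.93, and Hba-a1 and Hba-a2 had r = 0.88 and rho = 0.90. In two-sided permutation tests each had p = 1e-05, the smallest that 100000 permutations can give. The adjusted p was 2e-05 for each over the 6 pairs of members. Values were permuted over all D2 libraries and not within letters, so these p-values do not set aside the differences between letters. Without the 2 libraries farthest from the median of the first gene, r was 0.94, 0.90 and 0.89.

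The letters differed in level, so r was also taken within letters A to D. It was 0.95, 0.88, 0.82 and 0.76 for Hbb-bs with Hba-a2, and 0.74, 0.75, 0.89 and 0.76 for Hbb-bs with Hba-a1. For the alpha pair it was 0.65, 0.80, 0.82 and 0.40, the lowest in letter D. With letter means subtracted, r was 0.85 for Hbb-bs with Hba-a2, 0.79 for Hbb-bs with Hba-a1 and 0.68 for the alpha pair. The 2 alpha genes together had between 0.381 and 1.02 counts per count of Hbb-bs, with a median of 0.557.

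**Figure D4:**
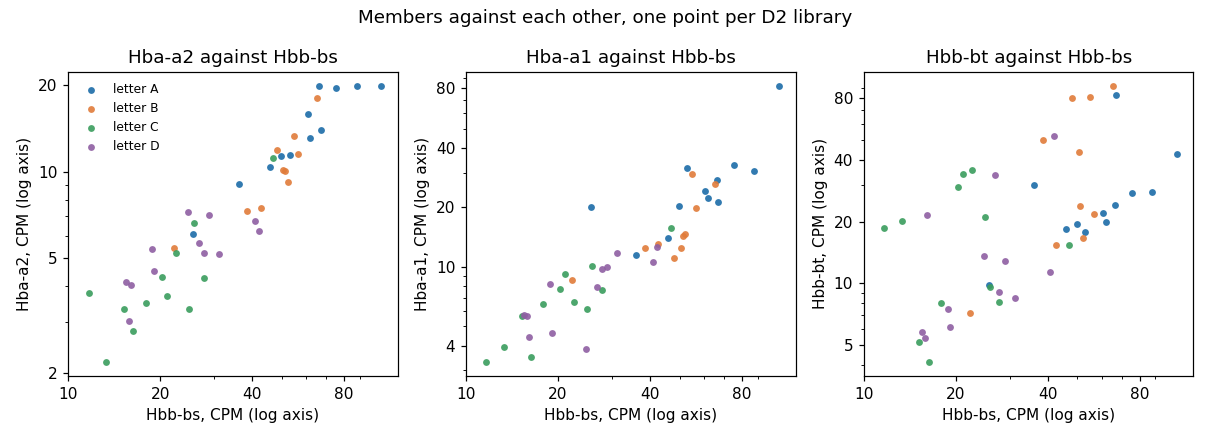
Each point is a D2 library, coloured by letter, with CPM of Hbb-bs on the x axis and of Hba-a2, Hba-a1 or Hbb-bt on the y axis, all on log axes. The alpha chains follow Hbb-bs along one line (r = 0.94 and 0.91), with single libraries off it for Hba-a1, while Hbb-bt lies along separate bands.

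Hbb-bt did not keep one proportion to Hbb-bs. The ratio of their counts was between 0.253 and 0.551 in 30 D2 libraries, between 0.832 and 0.870 in 3 and between 1.24 and 1.67 in 13, with no library between these ranges. As a share of the beta counts, Hbb-bt made up 20.2% to 35.5% in the first range, 45.4% to 46.5% in the second and 55.4% to 62.5% in the third. The ranges were set at the 2 largest gaps in the sorted ratios, so intervals across them are a description and not a test. The highest upper bound of a 95% Clopper-Pearson interval in the first range was 41.7%, and the lowest lower bound above it 41.9%. Across the second gap these were 49.9% and 52.2%. The intervals cover counting error only and are not adjusted for their number. Over all D2 libraries, Pearson's r was 0.58 for Hbb-bt with Hbb-bs, 0.50 with Hba-a1 and 0.57 with Hba-a2. Within letters it ran from 0.11 to 0.64, from 0.21 to 0.56 and from 0.13 to 0.78, in the same order. The libraries fall into separate ranges, so these values do not describe a single line, and no p-value is given for them.

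Libraries above the first gap were found under every label. They were 2 of 12 in letter A, 5 of 10 in B, 6 of 12 in C and 3 of 12 in D, and 6 of 23 in females against 10 of 23 in males. By time they were 2 of 7 at ZT2, 3 of 7 at ZT6, 4 of 8 at ZT10, 2 of 8 at ZT14, 2 of 8 at ZT18 and 3 of 8 at ZT22. The mean log2 ratio was higher by 0.26 in males, and its largest difference was 0.69 between letters and 0.63 between times. Permutation tests on the sum of squares between groups (two-sided, 100000 permutations, adjusted over 6 tests) gave adjusted p = 0.530 for sex, 0.530 for letter and 0.622 for time. These tests were chosen after the data were seen. A pair of libraries of one group shows the contrast. In D2 females at ZT10, letter A had 67.0 CPM of Hbb-bs and 83.1 of Hbb-bt, and letter B had 51.2 and 23.9. Their Hba-a2 levels were 13.9 and 10.1 CPM, so they were in the same order as Hbb-bs. In D1, where single libraries hold too few reads, the counts added over all libraries gave a ratio of 0.558 (285 of Hbb-bt to 511 of Hbb-bs), and 0.455 (223 to 490) without the 3 libraries that stand apart.

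**Figure D5:**
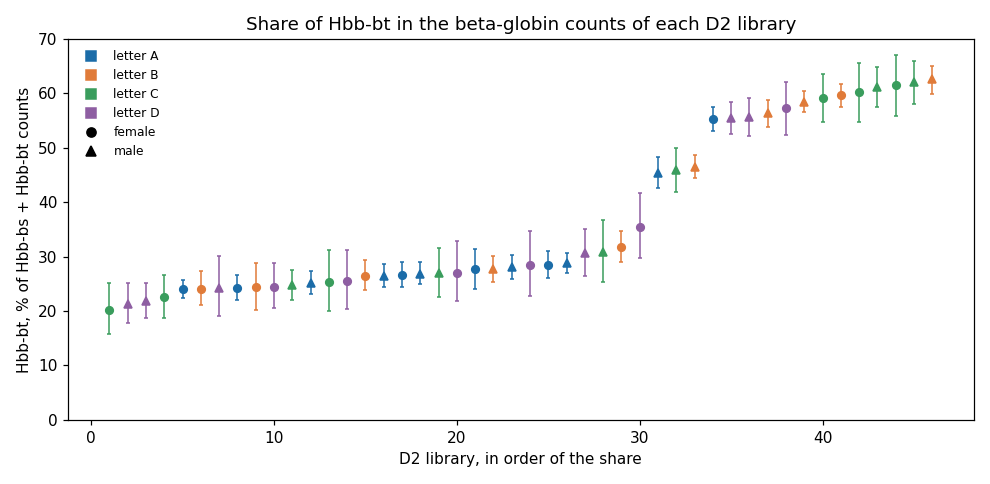
Counts of Hbb-bt as a percentage of Hbb-bs + Hbb-bt in each of the 46 D2 libraries, in order of that share, with 95% Clopper-Pearson intervals; colour gives the letter and shape the sex. The shares step from 35.5% to 45.4% after 30 libraries and from 46.5% to 55.4% after 33.

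In the alpha pair a few libraries lay far from the rest, and its ratios were not searched for gaps. The count ratio of Hba-a1 to Hba-a2 had a median of 1.58 and quartiles of 1.39 and 1.81. It was highest, at 4.15, in the male ZT2 library of letter A (1403 against 338 counts), then 3.28 in the female ZT2 library of letter A (338 against 103) and 2.78 in the male ZT10 library of letter A (699 against 251). It was lowest, at 0.531, in the female ZT22 library of letter D (26 against 49). The male ZT2 library of letter A had the highest Hbb-bs (105.9 CPM) and Hba-a1 (82.5 CPM) of any library, while its Hba-a2, at 19.9 CPM, was matched by other libraries of letter A. The ratio was not called different by sex, letter or time (adjusted p = 0.536, 0.530 and 0.530 in the same permutation tests).

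Among 14348 genes with a mean of at least 1 CPM in D2 libraries, ENSMUSG00000025270 was most like the members, with r = 0.92 over the 46 D2 libraries to their mean log2(CPM + 0.5). ENSMUSG00000044468 followed with r = 0.91, and the tenth gene had r = 0.83. The first had a mean of 0.879 CPM in D1 and 10.6 CPM in D2, and the second 1.24 and 8.68 CPM. In the D1 male ZT10 library of letter B, the one highest for all 4 members, the first was at 13.7 CPM, with every other D1 library at or below 1.41 CPM and a D1 mean of 0.587 CPM without it; the second was at 0.608 CPM there. In total 128 genes had r over 0.8, and after the mean of each letter was subtracted only these 2 did (r = 0.81 and 0.84). In D2 libraries edgeR called neither by sex (adjusted p = 0.926 each) or rhythm (1.00 each), against 0.216% and 2.94% of all genes. Both were called by letter in edgeR (2.45e-10 and 3.92e-07), as were 85.6% of all genes. The 2 genes were picked for moving with the members over these same libraries, so nothing is read from these calls. Likeness is a description over these libraries, which share depth and letter, and is given without a p-value.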

How the data were processed

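The authors deposited raw counts per gene, whole numbers, for 91 libraries, labelled as filtered by log CPM. Per the submitters' processing notes the tools were HTSeq 0.10.0, FastQC 0.11.7 and HISAT2, without a version for the last. The builds GRCm38 and GRCh38 are named without a role. Tests used edgeR 4.0.16 under R 4.3.3 (TMM, quasi-likelihood F-test), fitted to D1, D2 or all libraries. Each sex had its own mean and 24 h cosine and sine terms, and rhythm tests averaged those terms over the sexes. P-values were adjusted by Benjamini-Hochberg over all 14355 genes, with a threshold of 0.05; adjusted p-values named without a test are edgeR's. Standard errors were derived from the F statistic. The fit was checked on simulated data. Permutation tests and intervals used SciPy 1.17.1, and promoters were aligned with Biopython 1.88. Alternatives were DESeq2 1.42.0, RLE factors, filterByExpr, the letter as a block, time as a factor, each letter left out, the 3 D1 libraries left out, and other pseudocounts and floors. All ratio tests were chosen after the data were seen, as were their versions permuted within letters or without each letter. The levels without single high libraries were also chosen then.

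Same-letter D2 libraries of different groups deviated together from their group means (all of 243 pairs above 0.1, median 0.72, lowest 0.19), so letters were taken to pair them; in D1 149 of 223 pairs did (66.8%, lowest -0.61), so they were not. The labels do not say whether libraries of a group share animals beyond the pooled 2, and p-values measure the spread between these libraries.

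The table gives Ensembl identifiers without names. The names of the 4 members come with the rule that chose them; 0 of 49997 reference entries carry an Ensembl identifier, so marker lists (red cells, endothelium, leukocytes and others) could not be scored, the labelled cell types could not be checked against their markers, and other genes appear by identifier, at most 2. Positions and promoters were matched by symbol for all 4 members. The members, lists and tests were chosen with earlier results of these data known. Genes named are the members and those most like them.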

Additional observations from a re-analysis of the deposited data

Results flagged for a closer look

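Single libraries lay far from the other 3 in 13 of 76 sets of values. The sets were 19 groups of 4 libraries of one cell type, sex and time, for 4 genes. Chance sets apart about 1 in 20 where values are normal and the sets independent. Members moved together between D2 libraries, Hbb-bt less closely than the others, and 12 of the 13 cases were high. The 13 of 76 is therefore not read as an excess. In D2 females at ZT18, letter A was the high library for all 4 genes: Hbb-bs was at 87.9 CPM, with the nearest library at 22.2, Hbb-bt at 27.7 (7.47), Hba-a1 at 30.6 (8.63) and Hba-a2 at 19.9 (5.41). Hba-a1 was at 82.5 CPM in the D2 male ZT2 library of letter A, with the nearest at 11.8. The other D2 cases were all Hbb-bt: 83.1 CPM in female ZT10 letter A (nearest 29.5), 81.2 in female ZT22 letter B (nearest 22.1) and 49.8 in male ZT10 letter B (nearest 17.9), and these 3 libraries lie in the range of highest Hbb-bt to Hbb-bs ratios.

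In D1 the male ZT10 library of letter B stood apart for Hbb-bt (7.41 CPM, nearest 0.487), Hba-a1 (3.40, nearest 0.608) and Hba-a2 (5.35, nearest 0.709). Hbb-bs was high in the female ZT2 library of letter C (0.968 CPM, nearest 0.445) and low in the male ZT6 library of letter D (0.450 CPM, nearest 0.883), both at few reads.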

How the results depend on the processing

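Of the values that answer a comparison, 127 kept their call or stayed within 1.5 times the reported value under an alternative, and 4 did not. For sex in D2, 0 members were called, and 2 with the letter as a block. The block changed no other call of a member. Members called for letter in D1 were 0 to 2 when single letters were left out (2 without letter B) and 2 without the 3 D1 libraries that stand apart, where 48.7% and 66.7% of all genes were called. Genes with r over 0.8 to the members numbered 128, and 2 once letter means were subtracted. None of 8 sex differences (log2) that turned sign had been called. In D1, with single letters left out, Hbb-bt ran from -0.11 (without B) to 0.78, Hba-a1 from -0.73 to 0.073 (without C) and Hba-a2 from -0.062 (without B) to 0.68. Between cell types, Hbb-bt ran from -0.27 to 0.51 (0.14 without A, 0.51 without B) and Hba-a2 from -0.33 to 0.37 (without B); without the 3 D1 libraries they were 0.47 and 0.26. The cause was not tested. DESeq2 gave no adjusted p for the members in the sex tests, so those have no value. Low counts limit all D1 values.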
